A study of Drosophila melanogaster with 107 samples.

Results

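Potassium channels were described in sorted *Drosophila* brain cells through 10 genes, Sh, Shab, Shal, Shaw, KCNQ, eag, sei, Elk, slo and SK, taken by symbol from the 17050 gene rows of the developmental and the perturbation table. Potassium channels let potassium ions leave a neuron, and so repolarize it after an action potential, help to set its resting potential and limit how often it fires. Sh, Shab, Shal and Shaw form the Shaker family of voltage-gated channels, eag, sei and Elk the ether-a-go-go family, KCNQ carries a slow current near rest, and the slo and SK channels open when calcium rises. Most cells studied here were γ neurons of the mushroom body, the learning centre of the fly brain, which prune their larval axons after puparium formation and regrow adult ones under control of the steroid hormone ecdysone.

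The developmental table held 64 libraries. Of these, 52 were γ neurons at 14 stages from the second instar to the adult (y,w/+; UAS-RedStinger/+;71G10/+). The rest were adult astrocyte-like glia (UAS-RedStinger/cyo on one chromosome, alrm-Gal4 together with UAS-CD8:GFP and with UAS-Dcr2 over TM6, tb on another), adult αβ neurons, another class of mushroom body neuron (y,w/w; UAS-RedStinger/+;NP3061-GAL4/+), and adult neurons outside the mushroom body (y,w/C155-GAL4 with UAS-RedStinger over MB247-GAL80, which blocks GAL4 in the mushroom body), with 4 libraries each. Only the glial line carried CD8:GFP and Dcr2. Each cell type came from a fly line of its own, so line and cell type cannot be told apart. The perturbation table added 43 γ neuron libraries covering 4 genotypes at the third instar, 0, 6 and 12 h after puparium formation, with 2 or 3 per group. The tested genotypes were EcR-DN, which blocks the receptor for ecdysone, E75 RNAi, directed at the ecdysone response gene Eip75B, and Sox14 RNAi, directed at a transcription factor that ecdysone induces; no driver is named for them. Their controls had the genotype of the developmental γ neurons. Other differences between the perturbed lines and control thus cannot be told apart from the perturbation. Flies were reared at 25 °C with sexes at random, adults were 3 to 5 days old, and each library came from 1000 sorted red cells.

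Values are normalised reads per gene and library, from the 3′ ends of polyadenylated RNA, so levels are compared between libraries and never between genes. Library totals ranged from 1343651 to 2068007 (developmental) and from 1896123 to 2501051 (perturbation). Whether replicates came from separate animals or sorts is not stated, so the p-values cover variation among the sequenced libraries and nothing beyond it. All 10 genes passed the filter on low values in both tables. Fold changes are on the log2(value + 1) scale with their standard error (SE), and a gene was called where its Benjamini-Hochberg adjusted p over all genes of the table was under 0.05 in limma. For each gene, SE and p rest on its variation within all groups of the table, not only within the groups compared. Since the number of sorted cells was fixed, fewer cells of a type and less RNA per cell cannot be told apart.

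The labels were compared with the data first. All 9 mushroom body markers had a mean of at least 10 reads in γ neurons of the third instar and of the adult. The same held in all other adult cell types, so this count does not tell the types apart. The 9 markers summed to 30465 to 33947 reads in adult γ neurons and 22059 to 26041 in αβ neurons. Their sums were 7633 to 9356 in neurons outside the mushroom body and 4552 to 4814 in astrocyte-like cells. The 9 glial markers summed to 36830 to 52853 reads in astrocyte-like cells and 442 to 593 in adult γ neurons. The library labelled Sox14 RNAi A of the third instar correlated with 0 h libraries B and C at 0.881 and 0.893, and with B and C of its own stage at 0.873 and 0.881. The library labelled Sox14 RNAi 0 h A correlated with libraries B and C of the third instar at 0.894 and 0.889, and with B and C of its own stage at 0.856 and 0.875. The A libraries correlated with each other at 0.851, the lowest value among these 6 libraries, and B and C at 0.904 within each stage and 0.880 to 0.903 across stages. On average each A library was thus closer to B and C of the other stage than to those of its own, by a small margin for that of the third instar. Sox14 RNAi calls against control at these stages are given with and without both. The Sox14 reads that follow, and the change within Sox14 RNAi from the third instar to 6 h, include A. Sox14 averaged 1095 ± 58.5 reads in Sox14 RNAi and 6921 ± 782 in control at the third instar (SD, n = 3 and 2), but 577 ± 178 and 487 ± 22.6 at 6 h, where it was not lower than in control. Eip75B averaged 18818 ± 3728 reads in the libraries labelled E75 RNAi and 29969.5 ± 5676 in control at the third instar, but 17467 ± 2396 and 7400.5 ± 1531 at 6 h, where it goes against the label. Reads of EcR do not check a dominant-negative receptor.

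Across the γ neuron stages, 9 of the 10 genes differed in limma's F test, where 43.5% of the 8320 genes tested did, and sei did not pass (adjusted p = 0.161). The F test gave adjusted p = 1.15e-23 for Shab, 2.02e-21 for KCNQ, 2.99e-21 for slo and 4.36e-20 for Elk. The highest stage mean was 244 times the lowest for slo, 55.9 times for Shab, 11.7 times for Elk and 6.90 times for KCNQ. It was 5.53 times for Shaw, 4.62 for Shal, 3.82 for SK, 3.37 for sei and 2.70 for Sh. For eag the lowest stage mean was 2.75 reads and the highest 420.2. Adults had the highest mean of 8 genes, the exceptions being KCNQ, highest at 0 h, and SK, highest at the third instar.

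**Figure D1:**
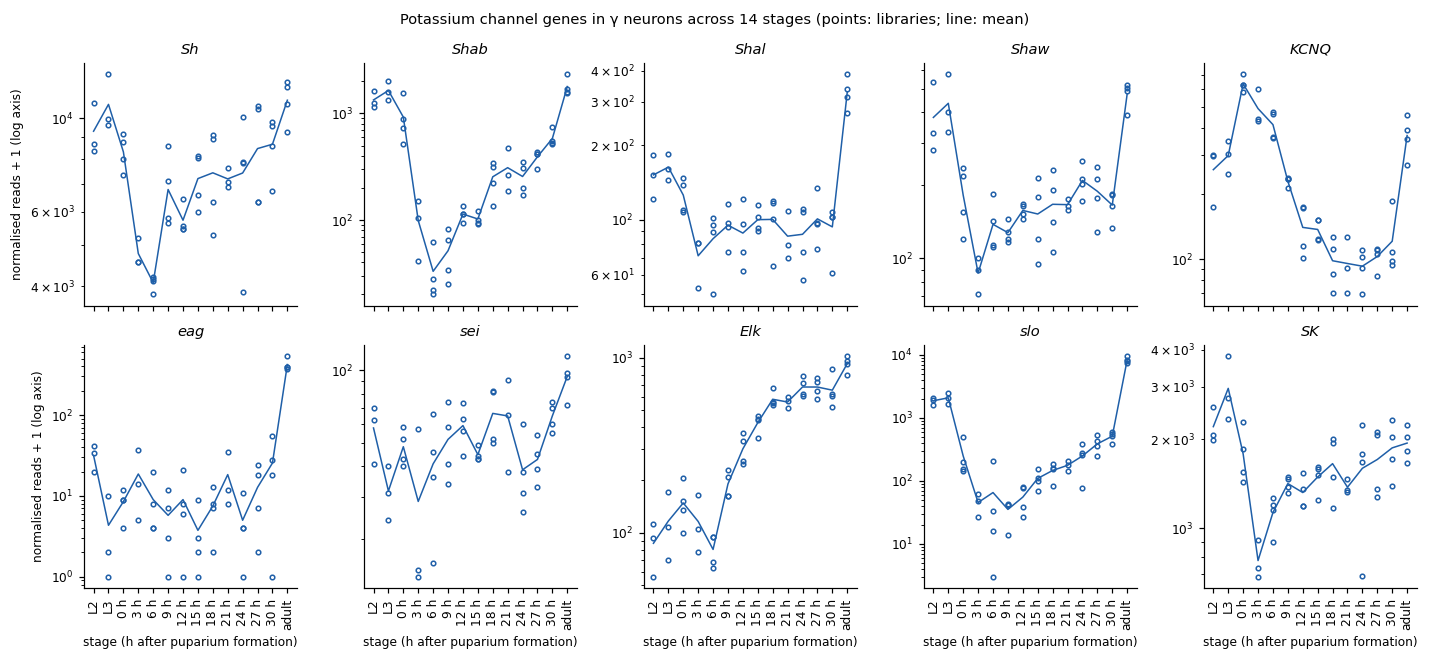
Normalised reads + 1 (log axis) of the 10 genes in γ neurons at 14 stages from the second instar (L2) to the adult; points are libraries and lines join group means. Shab is lowest at 6 h (mean 32) and slo at 9 h (mean 34.2), Elk climbs after 6 h, and KCNQ is highest at 0 h.

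The Shaker family genes are described first. Shab encodes a main delayed rectifier, the slow current that ends an action potential. It had 2018, 1334 and 1573 reads at the third instar, then 734, 883, 1562 and 517 at 0 h and 61, 21, 27 and 19 at 6 h. It then had 315, 224, 341 and 134 reads at 18 h, 546, 518, 743 and 523 at 30 h and 1545, 2342, 1577 and 1693 in adults. All 6 h libraries lie below every library of 0 h and of 18 h, and the ranges of the adult and the third instar overlap. The log2 fold change was -4.85 ± 0.37 at 6 h against 0 h (adjusted p = 6.95e-16), 3.02 ± 0.37 at 18 h against 6 h (3.76e-09) and 1.61 ± 0.37 in adults against 30 h (0.000766).

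Sh, the fast inactivating A-type channel, moved by less. It had 4124, 4165, 3827 and 4213 reads at 6 h, against 9160, 8765, 7344 and 8016 at 0 h, and 9128, 6323, 8944 and 5302 at 18 h. The 6 h libraries lie below all of 0 h and of 18 h, and Sh fell at 6 h (-1.02 ± 0.19, adjusted p = 6.18e-05) and rose at 18 h (0.83 ± 0.19, adjusted p = 0.00139). Shal, the A-type channel of cell bodies and dendrites, had 312, 338, 387 and 268 reads in adults, against 107, 60, 102 and 102 at 30 h. Shaw, a slowly gated channel that depends weakly on voltage, had 389, 490, 505 and 520 reads in adults, against 181, 133, 183 and 163 at 30 h. For both, every adult library lies above every 30 h library; Shal rose (1.83 ± 0.48, adjusted p = 0.00344) and so did Shaw (1.53 ± 0.43, adjusted p = 0.00708). Neither was called in the other stage comparisons; at 0 h against the third instar Shaw had 217, 235, 154 and 119 reads, against 401, 330 and 575 (-1.27 ± 0.47, adjusted p = 0.0819).

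KCNQ, which carries the slow M-type current, and Elk, an eag-like channel, moved in opposite directions between 6 and 18 h. KCNQ had 580, 627, 704 and 628 reads at 0 h, against 346, 244 and 303 at the third instar, with no overlap (1.10 ± 0.23, adjusted p = 0.000555). In the perturbation controls, of the same genotype, KCNQ had 568, 629 and 759 reads at 0 h and 420 and 580 at the third instar. Those ranges overlap, and that difference was not tested. In the developmental libraries KCNQ had 462, 357, 470 and 362 reads at 6 h, 85, 110, 69 and 126 at 18 h, 183, 97, 107 and 93 at 30 h and 459, 269, 390 and 353 in adults. It thus fell between 6 and 18 h (-2.10 ± 0.22, adjusted p = 1.90e-11) and rose between 30 h and the adult (1.64 ± 0.22, adjusted p = 1.83e-08), without overlap in either case. Elk had 62, 94, 67 and 94 reads at 6 h, 553, 536, 556 and 670 at 18 h and 620, 520, 863 and 607 at 30 h. Its 18 h libraries all lie above those of 6 h (2.87 ± 0.30, adjusted p = 2.45e-11). Adults had 798, 924, 961 and 1019 reads of Elk, against 171, 69 and 107 at the third instar (3.08 ± 0.32, adjusted p = 2.70e-11). Over the 14 stage means of log2(value + 1), KCNQ and Elk had the lowest Pearson correlation of any pair of the 10 genes, -0.70. Shab and slo had the highest, 0.93. The points share libraries and normalisation.

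Of the other ether-a-go-go genes, eag rose in adults, and sei did not pass the F test. The founding gene eag had 0 to 54 reads in γ neuron libraries before the adult. It had 391, 388, 531 and 371 reads in adults, against 17, 0, 27 and 54 at 30 h, with no overlap (5.01 ± 0.90, adjusted p = 1.66e-05; 3.78 without 30 h replicate 2 and 5.71 without replicate 4). The ERG-type channel gene sei (seizure) had 96, 71, 93 and 113 reads in adults, against 30, 39 and 23 at the third instar. That difference passed (1.59 ± 0.56, adjusted p = 0.0360), but not in 5 of 7 fits that left out 1 library, and adults did not pass against 30 h (0.53 ± 0.52, adjusted p = 0.567). Exons of gammaSnap1, with up to 443 reads, overlap sei on the opposite strand in the BDGP6 annotation, away from its annotated polyadenylated end. Exons of ppk29, with up to 18 reads, overlap sei near that end, also on the opposite strand. The strand used in counting is not stated.

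Of the calcium-activated channels, slo (slowpoke) has a big and SK a small conductance. In libraries of the third instar slo had 1689, 2039 and 2532 reads, in those of 0 h 492, 199, 145 and 153 and in those of 6 h 208, 15, 32 and 2. The 0 h libraries lie below all of the third instar, while 1 of the 6 h libraries lies within the 0 h range. It fell at 0 h (-3.25 ± 0.59, adjusted p = 5.59e-05) and again at 6 h (-3.18 ± 0.55, adjusted p = 9.67e-06; -4.22 without 6 h replicate 1 and -2.18 without replicate 4). At 18 h slo had 162, 81, 183 and 156 reads, at 30 h 553, 388, 514 and 594 and in adults 7949, 7571, 9510 and 8341. It rose at 18 h against 6 h, with overlapping libraries (2.55 ± 0.55, adjusted p = 0.000389; 3.59 and 1.55 without the same libraries). It also rose in adults against 30 h (4.04 ± 0.55, adjusted p = 3.52e-08), and in adults against the third instar (2.01 ± 0.59, adjusted p = 0.00893). SK had 735, 909 and 684 reads at 3 h, its lowest stage, 2289, 1855, 1545 and 1433 at 0 h and 2752, 2338 and 3803 at the third instar. Its falls at 0 h (-0.73 ± 0.24, adjusted p = 0.0455) and at 6 h against 0 h (-0.65 ± 0.22, adjusted p = 0.0483) were lost in 5 of 7 and 7 of 8 fits that left out 1 library.

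Counted together, 1 gene rose and 2 fell at 0 h against the third instar, where 8.53% of all genes were called (3.12% higher and 5.41% lower). At 6 h against 0 h 0 rose and 6 fell, against 11.6% (6.03% higher and 5.58% lower), with a median of -0.64 for the 10 genes and 0.09 for all genes. Among those 6, KCNQ (-0.63 ± 0.22, adjusted p = 0.0460) and Elk (-0.86 ± 0.30, adjusted p = 0.0489) passed by little and were lost in 7 of 8 and 5 of 8 fits that left out 1 library. At 18 h against 6 h 4 rose and 1 fell, against 12.4% (5.60% higher and 6.78% lower). At 30 h against 18 h none was called in limma (2 had an unadjusted p under 0.05), against 1.29% (0.781% higher and 0.505% lower). In adults against 30 h 6 rose and 0 fell, against 18.6% (9.29% higher and 9.35% lower), with a median of 1.57 for the 10 genes and -0.05 for all. Adults exceeded the third instar in 4 genes, eag, sei, Elk and slo, and fell below it in 0, against 20.0% (9.34% higher and 10.6% lower).

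**Figure D2:**
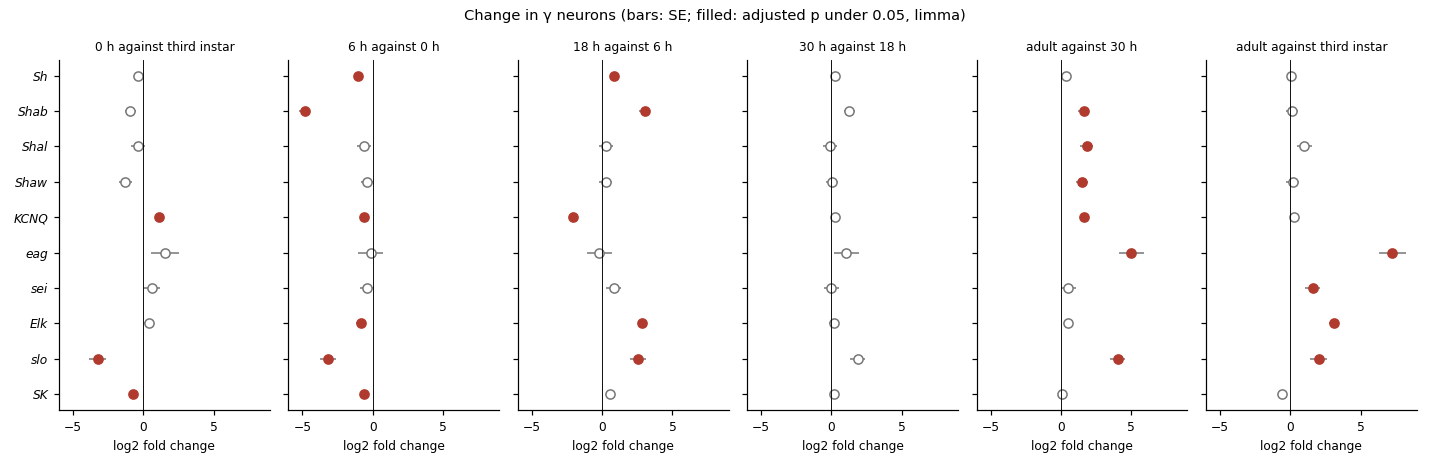
Log2 fold change (x axis; bars, SE) of the 10 genes in 6 comparisons of γ neuron stages; filled points passed an adjusted p of 0.05 in limma. At 6 h against 0 h the 6 filled points lie left of 0, and in adults against 30 h the 6 filled points lie right of 0.

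Marker sums moved with the stages too. At 0 h against the third instar the groups did not overlap in mushroom body markers (13758 to 21015 reads at 0 h and 26864 to 31950 at the third instar), pan-neuronal markers (5515 to 6327 reads at 0 h and 9745 to 12406 at the third instar) and glial markers (222 to 272 reads at 0 h and 314 to 482 at the third instar). The cuticle and tracheal genes summed to 698 to 1412 reads at 6 h, with 9 of 13 at a mean of at least 10 and 2 of 13 at 0 in every library, against 9 to 44 at 0 h, with 1 of 13 and 6 of 13. The sum of the 6 pan-neuronal markers was 13061 to 13842 reads at 6 h, against 5515 to 6327 reads at 0 h. The 9 glial markers gave a sum of 724 to 761 at 6 h, against 222 to 272 at 0 h. Only 4 of the 9 had a mean of at least 10 at 6 h and 3 of the 9 at 0 h. At 18 h the cuticle and tracheal genes summed to 0 to 11 reads, the glial markers to 399 to 466 and the pan-neuronal markers to 15814 to 24343, without overlap with 6 h. In adults against 30 h the mushroom body markers summed to 30465 to 33947 reads in adults and 13654 to 15914 at 30 h, and the hemocyte marker sum did not overlap either (median 414 in adults and 258.5 at 30 h). In adults against the third instar the pan-neuronal markers summed to 22036 to 25418 reads in adults and 9745 to 12406 at the third instar. From the second instar to 3 h only 1 of the 6 hemocyte markers had a mean of at least 10, so such a sum can rest on 1 gene. The part of these markers in the changes was not tested.

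Partners of these channels, other potassium channels and sodium, calcium and HCN channels were counted beside them. Of all genes, 3.12% were called higher and 5.41% lower at 0 h against the third instar. At 6 h against 0 h these shares were 6.03% and 5.58%. At 0 h against the third instar 0 of 6 partners rose and 4 fell, 1 of 12 other potassium channels rose and 1 fell, and 0 of 10 sodium, calcium and HCN channels rose and 5 fell. The smallest adjusted p there belonged to Slob, which binds the slo channel (-3.68 ± 0.42, adjusted p = 1.69e-09), the sodium channel gene para (-1.77 ± 0.26, adjusted p = 8.83e-07), the calcium channel gene Ca-alpha1D (-1.44 ± 0.28, adjusted p = 0.000134) and Hk, the beta subunit of Sh (-2.11 ± 0.46, adjusted p = 0.000802). At 6 h against 0 h the counts were 1 higher and 1 lower partner, 0 and 4 other potassium channels, and 1 and 4 of the sodium, calcium and HCN channels. They were led by CG42732, matched to the name SLO2 as a synonym (-2.31 ± 0.17, adjusted p = 7.33e-17), para (-2.56 ± 0.24, adjusted p = 7.59e-13), Slob (2.80 ± 0.39, adjusted p = 9.63e-08) and the tandem-pore channel gene Task6 (-2.75 ± 0.34, adjusted p = 4.66e-09). Slob thus went up while slo went down.

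Of all genes, 5.60% were called higher and 6.78% lower at 18 h against 6 h. These shares were 0.781% and 0.505% at 30 h against 18 h, and 9.29% and 9.35% in adults against 30 h. At 18 h against 6 h 3 partners rose and 0 fell, with 0 and 1 other potassium channels, and 3 and 1 of the sodium, calcium and HCN channels. At 30 h against 18 h these counts were 0 and 0, 0 and 0, and 1 and 1. In adults against 30 h 3 partners, 3 other potassium channels and 5 sodium, calcium and HCN channels rose, and none of the 3 lists' genes fell. The leading genes were the HCN channel gene Ih (4.12 ± 0.26, adjusted p = 2.01e-19), Ca-alpha1D (3.55 ± 0.26, adjusted p = 4.72e-17), NaCP60E (5.13 ± 0.61, adjusted p = 1.29e-09) and the calcium channel gene cac (1.93 ± 0.25, adjusted p = 1.37e-08).

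The genes with the most similar course were ranked by Pearson correlation of 14 stage means of log2(value + 1), as a description. The closest to Sh were Lis-1 (r = 0.97), Eps-15 (r = 0.96) and Ca-beta (r = 0.96), and to Shab jdp (r = 0.97), Mp (r = 0.97) and rad (r = 0.96). Shal was closest to RyR (r = 0.96), CG42450 (r = 0.96) and Sap47 (r = 0.96), and Shaw to sif (r = 0.97), CG7378 (r = 0.97) and Pde8 (r = 0.95). For KCNQ these were Pde9 (r = 0.98), rudhira (r = 0.97) and Ndae1 (r = 0.96), and for eag CR43629 (r = 0.93), CAH2 (r = 0.91) and Rgk2 (r = 0.91). For sei they were CG10959 (r = 0.89), CG10585 (r = 0.88) and pkaap (r = 0.87), and for Elk CR45520 (r = 0.96), CG32204 (r = 0.95) and CG2772 (r = 0.95). The course of slo was closest to CG10077 (r = 0.99), nAChRbeta1 (r = 0.98) and nSyb (r = 0.98), the last 2 being a nicotinic receptor subunit and a synaptic vesicle protein. SK was closest to CG43707 (r = 0.96), dysc (r = 0.96) and Pka-C1 (r = 0.94); dysc regulates the slo channel.

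Adult cell types differed most between glia and neurons. In astrocyte-like cells KCNQ was higher than in the 12 adult neuron libraries and the other 9 genes were lower, so all 10 were called, where 60.0% of all genes were (22.6% higher and 37.4% lower) and the median over all genes was -0.45. KCNQ had 5735, 5944, 4125 and 5537 reads in astrocyte-like cells, against 459, 269, 390 and 353 in γ neurons, 1685, 1217, 1729 and 1822 in αβ neurons and 550, 611, 679 and 593 in neurons outside the mushroom body. These 4 ranges do not overlap, and astrocyte-like cells exceeded the mean of the neuron groups (2.91 ± 0.18, adjusted p = 1.20e-21). Shaw had 37, 0, 11 and 5 reads in astrocyte-like cells, against 365 to 642 in neurons (-6.17 ± 0.35, adjusted p = 7.93e-23; -6.96 without astrocyte-like replicate 1 and -5.21 without replicate 2). Sh had 537, 498, 659 and 935 reads in astrocyte-like cells, against 9290 to 14907 (-4.19 ± 0.16, adjusted p = 6.42e-31), and slo had 422, 532, 305 and 365, against 3989 to 13661 (-4.23 ± 0.45, adjusted p = 2.31e-12). For sei the libraries overlap, at 37, 78, 4 and 2 reads in astrocyte-like cells and 65 to 170 in neurons (-2.81 ± 0.42, adjusted p = 6.88e-08; -3.62 without astrocyte-like replicate 2 and -2.05 without replicate 4). The other lower genes had fold changes of -4.22 ± 0.30 (Shab), -5.08 ± 0.39 (Shal), -4.82 ± 0.73 (eag), -3.95 ± 0.24 (Elk) and -3.57 ± 0.18 (SK), where Shal had -5.81 without astrocyte-like replicate 1 and -3.94 without replicate 2. Depth was estimated at 0.477 to 0.868 megareads in the 4 astrocyte-like libraries, where 1 original read stood for 2.355 to 4.335 normalised reads. Low values there, as of Shaw, Shal, eag and sei, thus rest on few original reads, and their fold changes are imprecise. The 6 pan-neuronal markers summed to 1802 to 2008 reads in astrocyte-like cells and 22036 to 25418 in γ neurons, and their part in the low values was not tested.

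Among neurons, KCNQ and Elk were the genes that passed with all groups in the fit. Fits of only the compared groups called more of the 10 genes in each comparison, as given at the end. With all groups in the fit, a gene's SE also holds its variation at other stages. For slo the SE of 0.55 was the same at 6 h against 0 h, where the 6 h libraries had 2 to 208 reads. A gene that did not pass here was thus not judged by the variation of the adult libraries alone. Adult γ neurons had less KCNQ than αβ neurons (-2.14 ± 0.22, adjusted p = 2.23e-11), the only call of 10, against 7.51% of all genes (3.97% higher and 3.55% lower). Elk had 798, 924, 961 and 1019 reads in γ neurons and 1216, 1533, 1337 and 1496 in αβ neurons, which do not overlap but did not pass (-0.59 ± 0.30, adjusted p = 0.296). Neurons outside the mushroom body had 185, 236, 202 and 226 reads of Elk. Both mushroom body types exceeded them in Elk, γ by 2.12 ± 0.30 (adjusted p = 1.60e-07) and αβ by 2.71 ± 0.30 (2.20e-10). KCNQ was lower in γ (-0.75 ± 0.22, adjusted p = 0.0105) and higher in αβ neurons (1.39 ± 0.22, adjusted p = 1.05e-06) than outside the mushroom body, and the γ difference was lost without γ adult replicate 2 (adjusted p = 0.0735). That made 2 of 10 genes in each comparison, against 14.5% of all genes for γ (4.56% higher and 9.92% lower) and 15.1% for αβ (4.90% higher and 10.2% lower), with medians over all genes of -0.15 and -0.14. For slo the values were 7949, 7571, 9510 and 8341 reads in γ neurons, 8796, 11001, 13661 and 12163 in αβ neurons and 4588, 5259, 4093 and 3989 outside the mushroom body, and neither γ (0.90 ± 0.55, adjusted p = 0.322) nor αβ neurons (1.34 ± 0.55, adjusted p = 0.0945) passed against the last, although the libraries do not overlap. SK had 1821, 1664, 2224 and 2037 reads in γ neurons, 1592, 2113, 2425 and 1535 in αβ neurons and 3023, 3256, 2444 and 2468 outside the mushroom body. It did not overlap with the last in either type and did not pass (-0.53 ± 0.22, adjusted p = 0.113 for γ and -0.56 ± 0.22, adjusted p = 0.0853 for αβ). In γ neurons every library of Shab lay above those of αβ neurons (0.70 ± 0.37, adjusted p = 0.329). They also lay above those outside the mushroom body (0.54 ± 0.37, adjusted p = 0.405). All γ libraries lay below αβ neurons in eag (-1.01 ± 0.90, adjusted p = 0.654). In Shaw they lay below neurons outside the mushroom body (-0.38 ± 0.43, adjusted p = 0.679). None of these passed.

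**Figure D3:**
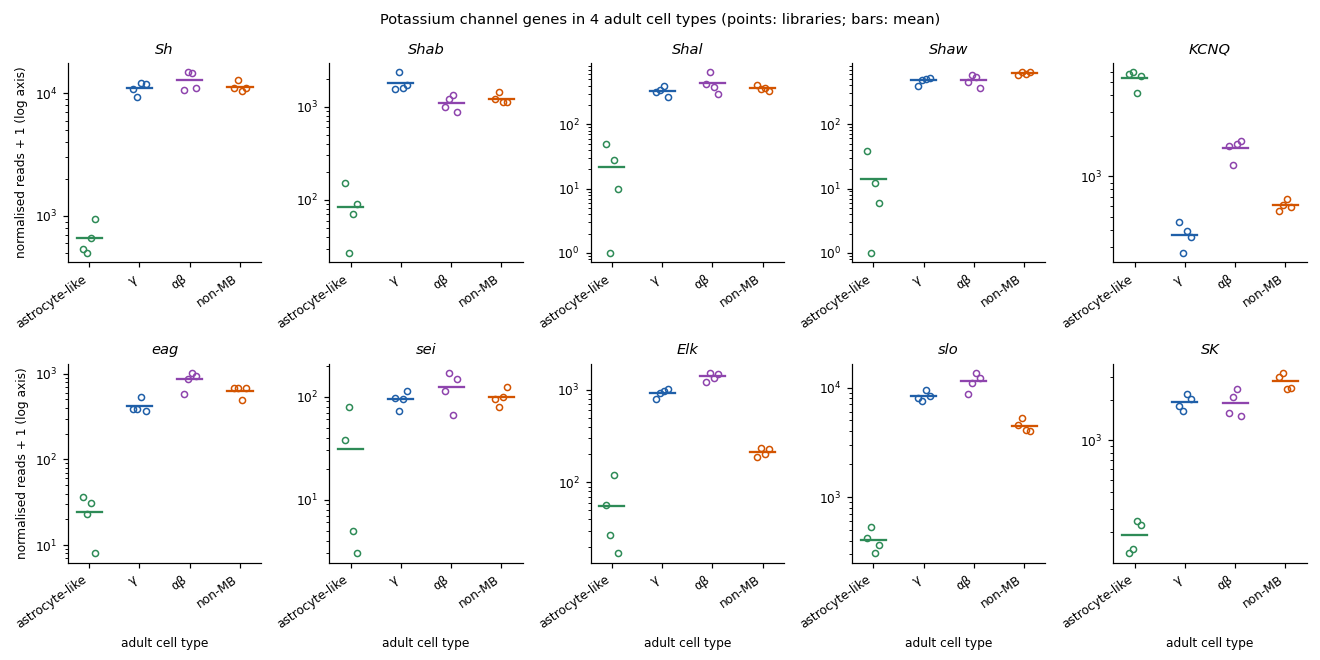
Normalised reads + 1 (log axis) of the 10 genes in 4 adult cell types (non-MB, neurons outside the mushroom body), with 4 libraries (points) and the mean (bar) each. KCNQ is highest in astrocyte-like cells, at 4125 to 5944 reads, and the means of the other genes are lowest there.

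In the perturbation table the control γ neurons fell in 4 of 10 genes at 6 h against the third instar and rose in 0, where 9.29% of the 8656 genes tested were called (4.04% higher and 5.24% lower). Shab had 45 and 40 reads at 6 h, against 1804 and 2614 at the third instar (-5.64 ± 0.35, adjusted p = 9.73e-16), and slo had 34 and 228, against 2099 and 1412 (-4.27 ± 0.69, adjusted p = 1.30e-05; -2.91 without control 6 h replicate A and -5.62 without replicate C). Sh (-1.03 ± 0.27, adjusted p = 0.00789) and Shaw (-1.33 ± 0.38, adjusted p = 0.0188) were each lost in 2 of 4 fits that left out 1 library. Where that leaves a group with a lone library, it is assumed to vary like the other groups.

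At 6 h EcR-DN γ neurons had far more Shab and slo than control. Shab had 2154, 1102 and 811 reads in EcR-DN, against 45 and 40 in control (4.84 ± 0.32, adjusted p = 8.48e-15). For slo the values were 2159, 2424 and 1773 reads in EcR-DN, against 34 and 228 in control (4.55 ± 0.63, adjusted p = 9.57e-07; 3.20 without control 6 h replicate A and 5.91 without replicate C). Neither gene's groups overlap. Sh had 12807, 12711 and 9312 reads in EcR-DN, against 4498 and 6670 in control (1.07 ± 0.25, adjusted p = 0.00298). Shaw had 409, 542 and 520, against 122 and 177 (1.72 ± 0.35, adjusted p = 0.000718). Both were lost without control 6 h replicate A (adjusted p = 0.171 and 0.0523). These 4 of 10 were called, against 6.85% of all genes (4.86% higher and 1.99% lower), with a median of 1.07 for the 10 genes and -0.02 for all. At 6 h the cuticle and tracheal genes summed to 625 to 1307 reads in EcR-DN and 2933 to 3708 in control, the glial markers to 352 to 419 reads in EcR-DN and 868 to 965 in control and the mushroom body markers to 29547 to 33400 reads in EcR-DN and 19333 to 24717 in control. Their part in the result was not tested.

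At 0 h 4 genes were higher in EcR-DN and 0 lower, against 16.8% of all genes (10.4% higher and 6.41% lower), with a median over all genes of 0.20. The gene slo had 4057, 4984 and 4116 reads in EcR-DN, against 331, 262 and 455 in control (3.68 ± 0.56, adjusted p = 3.29e-06), and SK had 4807, 5474 and 4079, against 1698, 1842 and 2835 (1.20 ± 0.33, adjusted p = 0.00693). Shaw was higher (1.47 ± 0.31, adjusted p = 0.000550), and so was Shal (1.48 ± 0.39, adjusted p = 0.00513), the last not without control 0 h replicate A (adjusted p = 0.0676). The pan-neuronal markers at 0 h summed to 20470 to 25972 reads in EcR-DN and 5874 to 7373 in control, the mushroom body markers to 34471 to 39992 reads in EcR-DN and 24768 to 28464 in control, the glial markers to 337 to 498 reads in EcR-DN and 260 to 335 in control and the neuroblast markers to 41 to 143 reads in EcR-DN and 1 to 2 in control. At 12 h 6 were higher and 0 lower, against 4.82% (4.01% higher and 0.809% lower). Shab had 1006 and 812 reads in EcR-DN, against 134, 112 and 108 in control (2.93 ± 0.32, adjusted p = 1.13e-08), and slo had 2403 and 1843, against 168, 83 and 98 (4.23 ± 0.63, adjusted p = 4.85e-06). The others were Sh (0.86 ± 0.25), Shal (1.57 ± 0.43), Shaw (1.65 ± 0.35) and SK (1.48 ± 0.36), lost in 4 of 5, 3 of 5, 1 of 5 and 3 of 5 fits that left out 1 library. The mushroom body markers at 12 h summed to 28997 to 31670 reads in EcR-DN and 20301 to 23624 in control. At the third instar Shab was lower (-1.19 ± 0.32, adjusted p = 0.0128), 1 of 10 against 8.24% (3.84% higher and 4.40% lower), and this was lost without replicate C of the third instar control (adjusted p = 0.273). At that stage slo had 3557, 3384 and 3403 reads in EcR-DN, against 2099 and 1412 in control. Shal had 357, 512 and 334, against 164 and 197. Both lay above every control library, and Sh, KCNQ and sei lay below, all without a call. Neuroblast markers at the third instar summed to 102 to 183 reads in EcR-DN and 8 to 41 in control. Pan-neuronal markers summed to 19890 to 22954 reads in EcR-DN and 9568 to 11318 in control. Glial markers summed to 469 to 543 reads in EcR-DN and 318 to 396 in control. The part of these markers in the results was not tested.

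The libraries labelled E75 RNAi shared the high Shab and slo at 6 h and also had more KCNQ. For slo they had 5657, 4660 and 3813 reads, against 34 and 228 in control (5.70 ± 0.63, adjusted p = 5.76e-09; 4.34 without control 6 h replicate A and 7.05 without replicate C). For Shab they had 815, 1071 and 1274, against 45 and 40 (4.58 ± 0.32, adjusted p = 5.74e-14). For KCNQ they had 1249, 890 and 1156, against 306 and 301 (1.84 ± 0.35, adjusted p = 0.000242). The groups of none of these 3 genes overlap, and each call held without any 1 library. Sh (1.33 ± 0.25, adjusted p = 0.000160) and Shaw (1.23 ± 0.35, adjusted p = 0.0188) were higher too, Shaw not in 2 of 5 fits that left out 1 library. In all 5 rose and 0 fell, against 8.39% of all genes (4.75% higher and 3.64% lower), with a median of 0.79 for the 10 genes and -0.14 for all. At 6 h the cuticle and tracheal genes summed to 1568 to 1773 reads in E75 RNAi and 2933 to 3708 in control, the neuroblast markers to 48 to 196 reads in E75 RNAi and 2 to 18 in control and the hemocyte markers to 135 to 261 reads in E75 RNAi and 80 to 116 in control. Their part in the result was not tested.

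At 12 h 3 genes were higher and 1 lower in the libraries labelled E75 RNAi, against 4.42% of all genes (3.21% higher and 1.21% lower). SK had 9235 and 4928 reads, against 1897, 1195 and 1615 in control (2.13 ± 0.36, adjusted p = 6.71e-05). For slo the values were 5514 and 2825, against 168, 83 and 98 (5.14 ± 0.63, adjusted p = 8.96e-08), and for Shab 1047 and 926, against 134, 112 and 108 (3.06 ± 0.32, adjusted p = 2.95e-09). Elk was the lower gene, with 53 and 64 reads in E75 RNAi, against 418, 249 and 373 in control (-2.52 ± 0.59, adjusted p = 0.00492), and lost its call without E75 RNAi 12 h replicate A (adjusted p = 0.0780). At 0 h slo (4.06 ± 0.63, adjusted p = 1.26e-05) and Shaw (1.21 ± 0.35, adjusted p = 0.0266) were higher, 2 of 10 against 6.75% (3.47% higher and 3.28% lower), and Shaw was lost in 3 of 5 fits that left out 1 library. At the third instar none was called in limma (5 had an unadjusted p under 0.05), against 3.20% (1.56% higher and 1.64% lower). There slo had 6500, 6216 and 4297 reads in E75 RNAi, against 2099 and 1412 in control (1.70 ± 0.63, adjusted p = 0.164). Neuroblast markers summed to 88 to 130 reads in E75 RNAi and 8 to 41 in control at the third instar, and pan-neuronal markers to 13409 to 18589 reads in E75 RNAi and 19174 to 20580 in control at 12 h. Their part was not tested.

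In the libraries labelled Sox14 RNAi, whose Sox14 reads were not below control at 6 h, Elk was higher than in control at that stage and Sh and KCNQ were lower. Elk had 949, 701 and 998 reads in Sox14 RNAi, against 37 and 141 in control (3.57 ± 0.59, adjusted p = 4.83e-05; 2.62 without control 6 h replicate A and 4.52 without replicate C). Sh had 1959, 2346 and 2501, against 4498 and 6670 (-1.28 ± 0.25, adjusted p = 0.000442), and KCNQ 107, 135 and 106, against 306 and 301 (-1.39 ± 0.35, adjusted p = 0.00900). Elk was thus above, and Sh and KCNQ below, every control library, and 1 gene of 10 rose and 2 fell, against 5.98% of all genes (2.29% higher and 3.70% lower). Sh lost its call without control 6 h replicate C (adjusted p = 0.0600), and KCNQ without either control 6 h library (up to 0.0808). Shab had 22, 29 and 47 reads in Sox14 RNAi, against 45 and 40 in control (-0.44 ± 0.32, adjusted p = 0.592), and slo had 26, 107 and 93, against 34 and 228 (-0.46 ± 0.63, adjusted p = 0.845); neither passed. The cuticle and tracheal genes summed to 29 to 687 reads in Sox14 RNAi and 2933 to 3708 in control, the glial markers to 284 to 343 reads in Sox14 RNAi and 868 to 965 in control and the mushroom body markers to 14625 to 16248 reads in Sox14 RNAi and 19333 to 24717 in control. Their part was not tested.

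KCNQ was also lower before 6 h in the libraries labelled Sox14 RNAi. At the third instar it had 53, 172 and 159 reads in Sox14 RNAi A, B and C, against 420 and 580 in control (-2.11 ± 0.35, adjusted p = 0.000167; -1.57 ± 0.31, adjusted p = 0.00183 without both A libraries). SK had 1321, 846 and 1106, against 2739 and 2812 (-1.37 ± 0.36, adjusted p = 0.0367; -1.52 ± 0.37, adjusted p = 0.0181 without both), and was lost in 4 of 5 fits that left out 1 library. These were 2 of 10, against 1.74% of all genes (0.220% higher and 1.52% lower; 1.59% without both A libraries). At 0 h KCNQ had 160, 68 and 125 reads, against 568, 629 and 759 in control (-2.53 ± 0.31, adjusted p = 1.20e-07; -2.80 ± 0.28, adjusted p = 1.06e-09 without both). It was the only call of 10, against 8.55% (3.57% higher and 4.98% lower), and without both A libraries Sh passed as well (-0.93 ± 0.20, adjusted p = 0.00127), against 7.00%. At 12 h none was called in limma (1 had an unadjusted p under 0.05), against 1.61% (0.936% higher and 0.670% lower). The A libraries stood apart in slo, with 279, 1518 and 2104 reads in A, B and C at the third instar and 1957, 577 and 310 at 0 h, and in Elk, with 752, 201 and 122 and 83, 474 and 370.

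**Figure D4:**
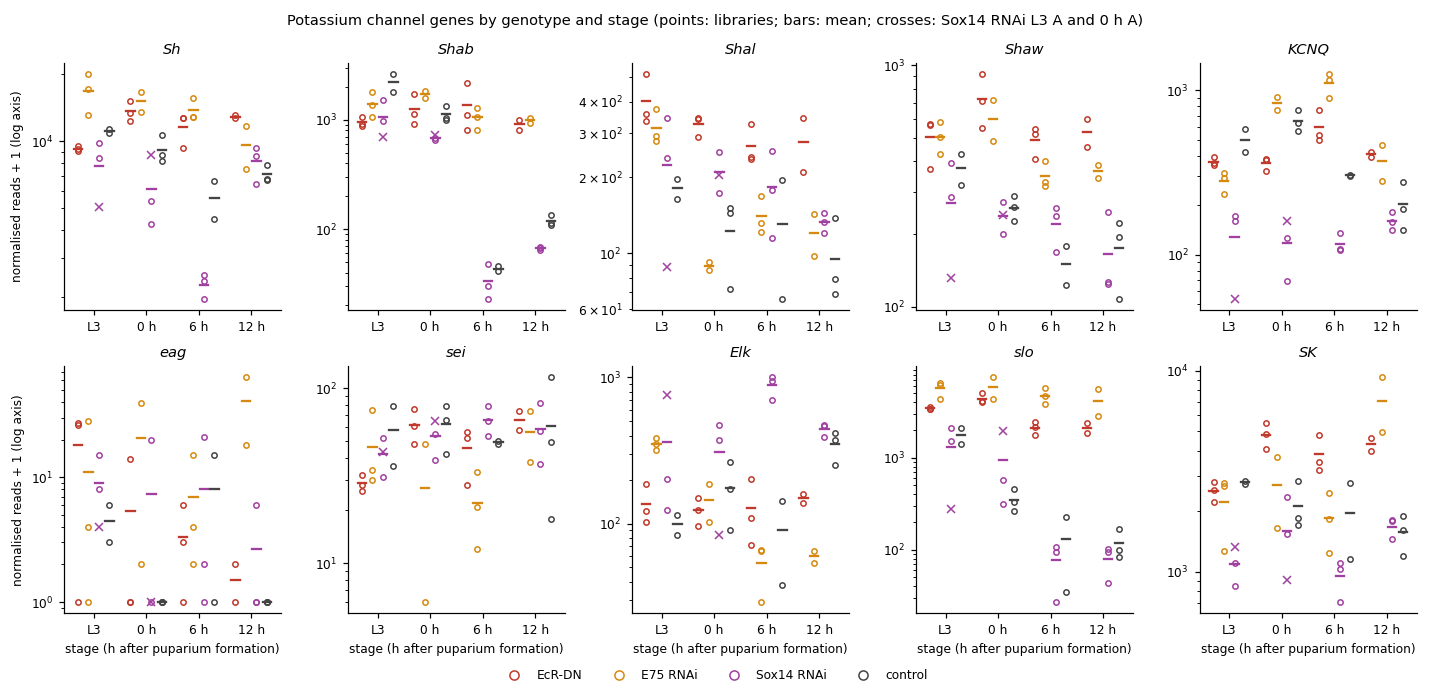
Normalised reads + 1 (log axis) of the 10 genes in γ neurons of EcR-DN, E75 RNAi, Sox14 RNAi and control, left to right within the third instar (L3), 0, 6 and 12 h; points are libraries, bars are means, and crosses are the libraries labelled Sox14 RNAi A at the third instar and at 0 h. At 6 h slo has 1773 to 2424 reads in EcR-DN, 3813 to 5657 in E75 RNAi, 26 to 107 in Sox14 RNAi and 34 to 228 in control.

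Whether the change from the third instar to 6 h differed from that in control was tested directly. Shab changed by 0.39 ± 0.29 in EcR-DN and by -5.64 ± 0.35 in control, a difference of 6.03 ± 0.46 (adjusted p = 4.02e-13). For slo the changes were -0.71 ± 0.56 and -4.27 ± 0.69 (difference 3.55 ± 0.89, adjusted p = 0.00817; 4.91 without control 6 h replicate C), and for Sh 0.31 ± 0.22 and -1.03 ± 0.27 (difference 1.34 ± 0.35, adjusted p = 0.0119). These 3 of 10 passed, against 5.05% of all genes (3.57% higher and 1.48% lower). Sh and slo were each lost without replicate B of the third instar control or control 6 h replicate A (adjusted p up to 0.154 and 0.239). In E75 RNAi 3 of 10 passed, against 5.78% (3.34% higher and 2.44% lower): Shab (5.24 ± 0.46, adjusted p = 5.70e-11), KCNQ, which changed by 1.97 ± 0.31 in E75 RNAi and -0.70 ± 0.39 in control (2.67 ± 0.50, adjusted p = 0.000243), and slo (4.0 ± 0.89, adjusted p = 0.00229). The last was 5.36 without control 6 h replicate C, and was lost without replicate A (2.65, adjusted p = 0.101). In Sox14 RNAi none passed in limma (2 had an unadjusted p under 0.05), against 1.25% (0.739% higher and 0.508% lower). Without both A libraries Elk passed (2.88 ± 0.68, adjusted p = 0.0124), against 1.92%.

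**Figure D5:**
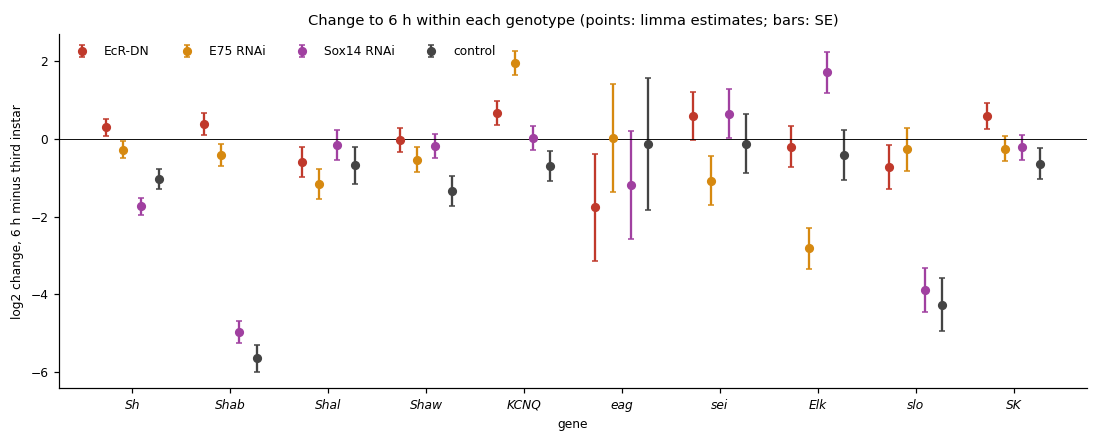
Log2 change from the third instar to 6 h (y axis) within each genotype for the 10 genes; points are limma estimates and bars their SE. Shab changes by 0.39 ± 0.29 in EcR-DN and -0.41 ± 0.29 in E75 RNAi, and by -4.97 ± 0.29 in Sox14 RNAi and -5.64 ± 0.35 in control. The Sox14 RNAi values include the library labelled A of the third instar.

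The perturbations were also set against each other at 6 h. EcR-DN exceeded the libraries labelled Sox14 RNAi in Sh, Shab, Shaw, KCNQ, slo and SK and was lower in Elk (-2.91 ± 0.53, adjusted p = 8.42e-05), 6 higher and 1 lower of 10, against 8.71% of all genes (5.87% higher and 2.84% lower). Of these, Shaw was lost in 2 of 6 fits that left out 1 library. E75 RNAi exceeded Sox14 RNAi in Sh, Shab, KCNQ (3.23 ± 0.31, adjusted p = 1.11e-10), slo and SK and was lower in Elk (-4.13 ± 0.53, adjusted p = 6.59e-08), 5 higher and 1 lower, against 16.9% (8.92% higher and 7.98% lower). SK there was lost in 5 of 6 fits. Between EcR-DN and E75 RNAi the only call was SK, with 3198, 4788 and 3526 reads in EcR-DN, against 2463, 1818 and 1233 in E75 RNAi (1.10 ± 0.33, adjusted p = 0.0175), 1 of 10 against 13.6% (7.54% higher and 6.04% lower), and it was lost in 2 of 6 fits. KCNQ had 756, 500 and 535 reads in EcR-DN, against 1249, 890 and 1156 in E75 RNAi; these do not overlap but did not pass (-0.89 ± 0.31, adjusted p = 0.0531).

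The other lists at 6 h were compared with the same control libraries. Of all genes, 4.86% were called higher and 1.99% lower in EcR-DN. These shares were 4.75% and 3.64% in E75 RNAi, and 2.29% and 3.70% in Sox14 RNAi. In EcR-DN 2 of 6 partners, 5 of 9 other potassium channels and 5 of 10 sodium, calcium and HCN channels were higher, and none was lower. The leading genes were para, with a mean of 4090.3 reads in EcR-DN and 357 in control (3.61 ± 0.38, adjusted p = 2.15e-09), the calcium channel subunit gene Ca-beta (2.04 ± 0.30, adjusted p = 3.49e-06), Ca-alpha1D (2.26 ± 0.34, adjusted p = 4.57e-06) and Task6 (1.58 ± 0.26, adjusted p = 2.14e-05). In E75 RNAi 0 partners were higher and 1 lower, 3 other potassium channels were higher and 0 lower, and 5 sodium, calcium and HCN channels were higher and 0 lower. They were led by para, with a mean of 6291 reads in E75 RNAi and 357 in control (4.24 ± 0.38, adjusted p = 2.50e-11), Ca-alpha1D (3.58 ± 0.34, adjusted p = 1.12e-10), Ih (1.49 ± 0.29, adjusted p = 0.000265) and cac (1.79 ± 0.36, adjusted p = 0.000494). In Sox14 RNAi the counts were 1 higher and 0 lower, 0 and 0, and 1 and 1 for the 3 lists.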

How the data were processed

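The deposited values are a score: read numbers per gene that were normalised and rounded to whole numbers, by a method that the labels do not describe. Libraries were made by MARS-seq with molecular barcodes, per the labels' protocols, and whether reads or molecules were counted is not stated. Tools listed, with no role, in the submitters' processing notes are HISAT 0.1.5, HOMER and bcl2fastq. No genome build is named, so no coordinates are given. Each table was normalised on its own and tested only within itself. Original depth could be estimated from the spacing of low values in 12 developmental libraries (0.477 to 1.68 megareads) and 13 perturbation libraries (1.01 to 2.17), and limits the precision of low values.

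Genes needed a value of at least 10 in 3 developmental or 2 perturbation libraries, which left 8320 and 8656 genes. Group means of log2(value + 1) over all groups of a table were fitted with limma 3.58.1 (R 4.3.3, eBayes with a trend), and two-sided p-values were Benjamini-Hochberg adjusted over all genes. The fit was tested on simulated data with 200 changed genes, drawn 1 time per table around the real group means. The spread setting in that draw was assumed and the same for all genes. For 0 h against the third instar (8320 genes) it recovered 19% of changes of 1 and 94% of changes of 2 on the log2 scale, and 11.0% of called genes were unchanged ones. For EcR-DN against control at the third instar (8655 genes) it recovered 5% and 80%, with 10.5%. The share of unchanged genes among calls was thus above the nominal 5% under that assumed spread. It is not the error rate of the real calls, which is unknown, and calls near the threshold are weak.

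All 10 genes are named in each comparison or its counts. Of the other lists, up to 4 called genes with the smallest adjusted p are named in 5 comparisons, and 3 genes with the most similar course are named for each channel. The members and lists were chosen with earlier results of these data known. Alternatives were a pseudocount of 5, no filter, median-of-ratios rescaling, a replicate block, fewer groups in the fit, leaving out each library and, added after seeing the data, leaving out both Sox14 RNAi A libraries.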

Additional observations from a re-analysis of the deposited data

Results flagged for a closer look

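In 9 of 123 sets, each holding 1 gene in 1 group of 4 libraries, 1 library stood apart on the log2 scale by Dixon's criterion. Chance flags about 1 in 20 sets, and sets of different genes share libraries. In γ neurons at 9 h, replicate 2 had 210 reads of KCNQ, the others 231 to 234, and 13 reads of slo, the others 41 to 42. At 12 h replicate 4 had 6453 reads of Sh, the others 5455 to 5557, and at 18 h replicate 4 had 670 reads of Elk, the others 536 to 556. At 27 h replicate 2 had 300 reads of Shab, the others 415 to 435. At 30 h replicate 3 had 743 reads of Shab, the others 518 to 546, and replicate 2 had 60 reads of Shal, the others 102 to 107. For eag, adult γ replicate 3 had 531 reads, the others 371 to 391, and replicate 3 of the neurons outside the mushroom body had 498, the others 674 to 677.

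The change from the third instar to 6 h differed from control by limma's test of the difference in 6 cases. In EcR-DN the differences (log2) were 1.34 ± 0.35 for Sh, 6.03 ± 0.46 for Shab and 3.55 ± 0.89 for slo. In E75 RNAi they were 5.24 ± 0.46 for Shab, 2.67 ± 0.50 for KCNQ and 4.0 ± 0.89 for slo.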

How the results depend on the processing

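None of the results reversed under the alternatives run. Of 95 called values, 67 stayed called without each single library and 28 did not (6 of 39 in development, 22 of 56 in perturbation); with 1 library left in a group, it is assumed to vary like the others. Low reads, as of eag and sei, limit what depth can show. Without 1 library at a time, the number of the 10 genes called was 3 to 5 at 6 h against 0 h (6 with all), 1 to 2 in γ against neurons outside the mushroom body (2), 0 to 1 in EcR-DN at the third instar (1), 1 to 2 in Sox14 RNAi at the third instar (2) and 2 to 4 in control at 6 h against the third instar (4). It was 1 to 4 for EcR-DN minus control (3), 1 to 2 in E75 RNAi at 0 h (2), 1 to 2 in Sox14 RNAi at 0 h (1), 2 to 6 in EcR-DN at 6 h (4), 1 to 3 in Sox14 RNAi at 6 h (3), 2 to 6 in EcR-DN at 12 h (6) and 0 to 2 in EcR-DN against E75 RNAi (1). With only the compared groups in the fit it was 2 at 30 h against 18 h (0), 4 in γ against αβ (1), 7 in γ and 4 in αβ against neurons outside the mushroom body (2 each), and 3 in EcR-DN against E75 RNAi (1). At the third instar it was 3 in EcR-DN (1), 2 in E75 RNAi (0) and 0 in Sox14 RNAi (2), with 1 in E75 RNAi at 0 h (2) and 2 in control at 6 h against the third instar (4). A pseudocount of 5 gave 2 at 30 h against 18 h and 2 in EcR-DN against E75 RNAi, rescaling also gave 2 in the last, and leaving out astrocyte-like libraries gave 1 at 30 h against 18 h. With no filter it was 3 at 6 h against 0 h and 1 in Sox14 RNAi at the third instar. Without both Sox14 RNAi A libraries, a choice made after seeing the data, it was 2 in Sox14 RNAi at 0 h (1) and 1 for Sox14 RNAi minus control (0). The share of all genes called under these settings is given, further above, only for the fits without both Sox14 RNAi A libraries. The other counts therefore cannot be read as particular to the 10 genes, and the cause of these shifts was not tested. Same-numbered libraries did not deviate together (in the perturbation table r = -0.05 to 0.06, 0 of 16 comparisons paired). A fit with the replicate block gave the same count in 29 of 30 results and 4 in place of 6 at 6 h against 0 h.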
